A study of Mus musculus with 6 samples.

Results

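Imprinted growth regulators are genes that act on fetal or postnatal growth and are read from 1 parental copy only. The 9 examined here were H19, Meg3, Dlk1, Peg3, Plagl1, Grb10, Mest, Ndn and Cdkn1c, out of 20142 named genes with a probe on the arrays. They were taken by name, with every non-control probe that the gene table or, for H19, the probe's own name assigned to them. This gave 22 probes for the 9 genes, without 2 probes of an accession that the gene table does not list. The accession listed for H19 in the gene table matched no probe, so H19 rests on the 5 probes that carry that name in the scanner output itself.

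Messenger and noncoding RNA of the heart ventricle was measured on one-colour arrays in C57bl/6j mice, all male and 11 to 12 weeks old. The 3 icKO mice carried floxed Tead1 alleles (Tead1F/F) and Myh6-CreER, a tamoxifen-activated Cre recombinase under a promoter active in cardiomyocytes, and the 3 controls carried Tead1 flox; both groups received tamoxifen. Tead1 is a DNA-binding factor that works with YAP and TAZ, and the design asks how the adult ventricle differs after its deletion in cardiomyocytes. No Cre is named for the controls, so the deletion of Tead1 and the Cre transgene cannot be told apart, and the labels give neither dose nor timing of tamoxifen. In a whole ventricle, fewer cells of a type and less RNA per cell cannot be told apart either. The labels number the samples as biological replicates. Each value below is a log2 level, the background-subtracted signal relative to the 75th percentile of that array, or a log2 difference between group means (icKO minus control). Levels of different probes are not comparable with each other.

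Imprinting works through DNA methylation laid down in the germ line at control regions, after which 1 parental copy stays silent. The 9 genes belong to 8 imprinted clusters, since Meg3 and Dlk1 share a cluster and are read from opposite parental copies. They are mostly abundant in fetal tissue and fall after birth, and many are kept in stromal and progenitor cells of adult organs. H19, Meg3, Grb10 (in most tissues) and Cdkn1c are read from the maternal copy, and Dlk1, Peg3, Plagl1, Mest and Ndn from the paternal copy.

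Of 22280 features tested over the whole array, 9976 (44.8%) passed an adjusted p of 0.05 (limma, Benjamini-Hochberg), 3574 (16.0%) higher and 6402 (28.7%) lower in icKO. Against that background 4 of the 8 tested members passed, 2 higher (Meg3 and Peg3) and 2 lower (Mest and Cdkn1c). Plagl1, H19, Grb10 and Ndn did not pass, and Dlk1 had no probe well above background. The median difference was 0.26 over the 8 members and -0.14 over all features. The groups did not overlap for 5 of the 8, and for 58.9% of all features. Of the 22 member probes 17 passed the filter on dim probes, and of these 3 were higher, 3 lower and 11 not called, where 44.3% of all probes were called. These shares lie near the background and are no result about the members as a group. Peg3 passed the filter through the icKO arrays alone, so its place in these counts was favoured by the filter. Where probes had to be above background on all 6 arrays, which leaves Peg3 out, 7 members were tested, with 1 higher (Meg3) and 3 lower (Mest, Cdkn1c and Ndn).

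Tead1 itself stood at log2 levels of 4.01, 3.79 and 3.96 in controls and 3.66, 3.44 and 3.46 in icKO. Its difference of -0.40 ± 0.11 (SE, adjusted p = 0.030) was lost under 8 other settings and turned to 0.04 with spike-in scaling. A second Tead1 probe was lower by -0.43 (adjusted p = 0.0202), and the groups overlapped on the third (-0.19, adjusted p = 0.25). The place of these 3 probes within the gene is unknown here, so whether they fall in the deleted stretch was not tested and the labels stay unchecked. Between 47.9% and 50.9% of probes were well above background, with 0 saturated spots. The balance of directions rested on scaling: the higher share of the calls was 35.8% after 75th percentile scaling, 54.6% after median scaling and 81.0% after scaling to 5 spike-in probes. The last 2 added 0.16 and 0.44 to the median log2 difference of all features. All 6 arrays shared 1 slide of 2 rows, with controls 1 and 3 and icKO 2 in row 1, and control 2 and icKO 1 and 3 in row 2.

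**Figure D1:**
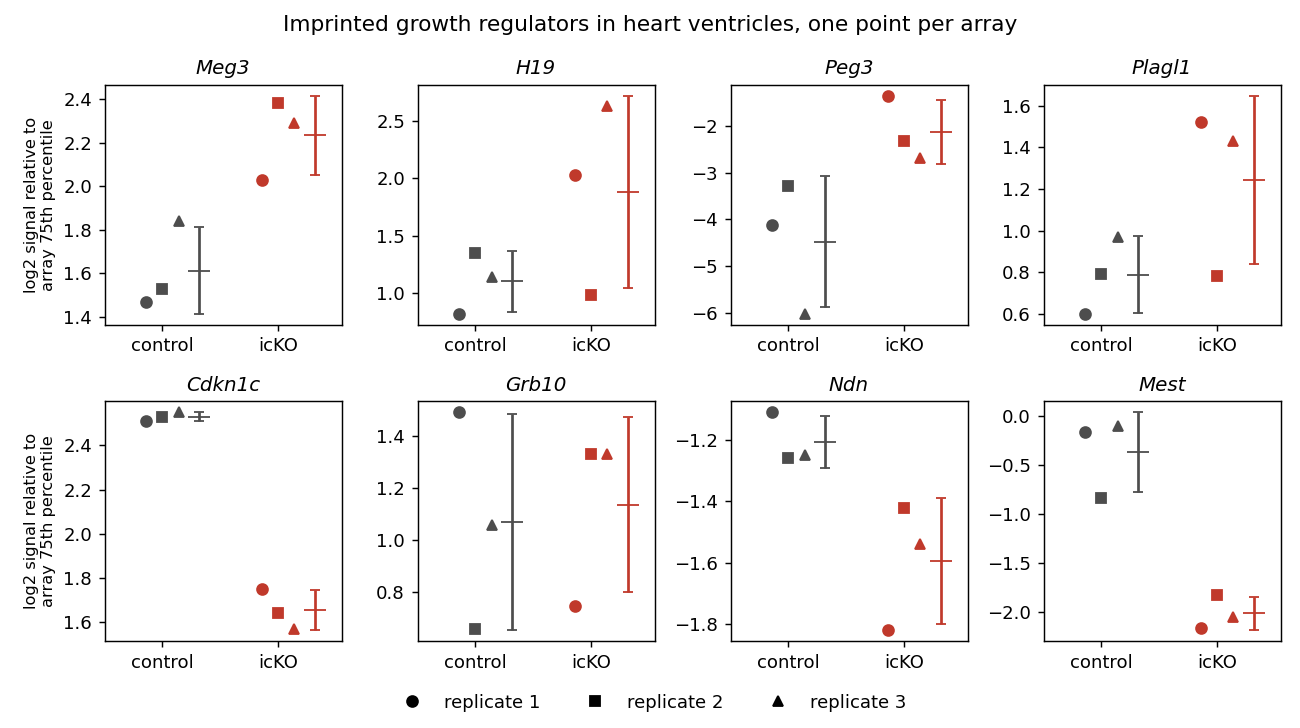
Log2 level relative to the array's 75th percentile (vertical axes, which differ between panels and do not start at 0) of the probe that stands for each of the 8 tested members, with 1 point per array (circle, square and triangle for replicates 1, 2 and 3) and the mean ± SD beside them. Meg3 and Peg3 have all 3 icKO arrays above the controls (2 Peg3 controls were not well above background), Cdkn1c, Mest and Ndn have all 3 below, and H19, Plagl1 and Grb10 overlap.

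The noncoding RNAs came first in the order of roles. Meg3, a long noncoding RNA of the Dlk1-Dio3 cluster with growth-restraining activity in cultured cells, was higher in icKO. Its brighter probe stood at log2 levels of 1.47, 1.53 and 1.84 in control replicates 1 to 3, and at 2.03, 2.38 and 2.29 in icKO replicates 1 to 3. All 3 icKO arrays lay above all 3 controls. The difference was 0.62 ± 0.15 (SE, n = 3 and 3; adjusted p = 0.0165), or 1.53-fold. A second Meg3 probe gave levels of -1.71, -1.70 and -1.42 in controls and -0.93, -1.10 and -0.82 in icKO. It separated the groups in the same direction, by 0.66 ± 0.13 (adjusted p = 0.00817). The third probe stayed near background on all 6 arrays. Both probes that were measured rose with the slide row held fixed (0.67 and 0.65, adjusted p = 0.0205 and 0.0209), and the brighter one differed by 0.72 within row 1 and 0.63 within row 2. The Meg3 call was narrowly lost when control replicate 1 (0.55) or 2 (0.57) was left out, or icKO replicate 2 (0.54) or 3 (0.59), with adjusted p between 0.0509 and 0.0525. Keeping all dim probes, which adds features to the adjustment, gave an adjusted p of 0.0694.

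H19, the maternally read noncoding RNA beside Igf2, is among the most abundant transcripts of the fetal organism and is restricted after birth. Its brightest named probe stood at log2 levels of 0.82, 1.35 and 1.14 in controls and at 2.03, 0.98 and 2.63 in icKO. Replicates 1 and 3 of icKO lay above every control, while icKO replicate 2 lay between control replicates 1 and 3, so the groups overlapped. The difference of 0.77 ± 0.41 did not pass (adjusted p = 0.166). The SD was 0.83 among icKO arrays and 0.27 among controls. The remaining 4 probes gave differences of 0.62 to 0.74, and none passed. All 5 probes ordered the arrays alike at the top, with icKO replicate 3 highest, then icKO replicate 1, then control replicate 2. Averaged over the 5 probes, controls 1 to 3 had -0.59, -0.14 and -0.32 and icKO 1 to 3 had 0.59, -0.65 and 1.12, so icKO replicate 2 was the lowest array by that mean. The spread between icKO arrays was thus shared by all 5 probes.

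A further bright probe carries the accession NR_001592, which the gene table does not list, and is not counted as H19 here. It stood at 2.51, 3.04 and 2.94 in controls and 3.77, 2.74 and 4.29 in icKO. The order of its 6 arrays was that of the brightest H19 probe, and its difference was 0.77 ± 0.39 (adjusted p = 0.152). Without icKO replicate 2 the H19 difference was 1.22 (adjusted p = 0.0165). Without icKO replicate 3 it was 0.40. Slide row moved with the pattern: the icKO arrays high in H19 lay in row 2 and the low one in row 1, and the difference was 0.00 within row 1 and 0.98 within row 2. With row as a block it was 0.49 (adjusted p = 0.229). The part of the row in the H19 result was not tested.

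H19, Meg3 and Mest also carry microRNAs within their transcripts. These were not measured by the probes described here, and their mature sequences, from RefSeq (GRCm38.p6), are shown because they lie within transcripts described here; the seed, bases 2 to 8, is in capitals. None of the 7 mature microRNAs listed for the 3 hosts shares its seed with another, and 4 of them follow.
mmu-miR-675-5p (H19, chr7:142577112-142577133, minus strand): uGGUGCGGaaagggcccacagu
mmu-miR-675-3p (H19, chr7:142577078-142577099, minus strand): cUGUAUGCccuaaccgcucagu
mmu-miR-770-5p (Meg3, chr12:109563710-109563731, plus strand): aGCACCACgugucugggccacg
mmu-miR-335-5p (Mest, chr6:30741314-30741336, plus strand): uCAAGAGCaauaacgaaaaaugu

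**Figure D2:**
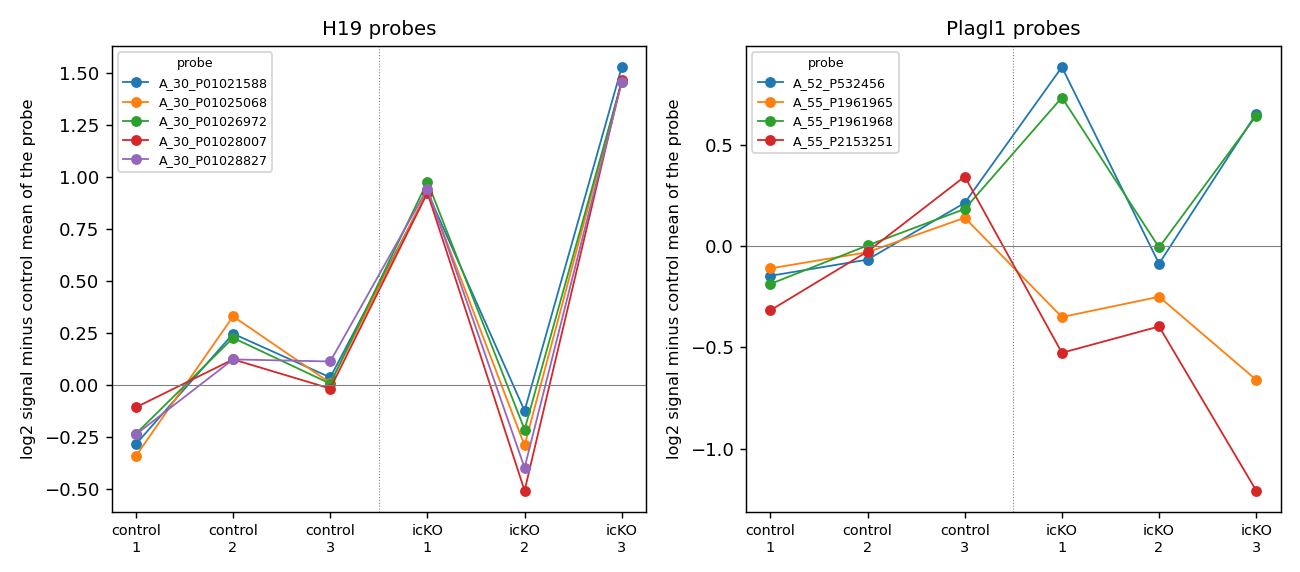
Log2 signal of each probe on the 6 arrays minus that probe's own control mean (vertical axis), for the 5 probes named H19 and the 4 Plagl1 probes; lines join the values of 1 probe and have no meaning as a course over arrays. The H19 probes move together, high on icKO 1 and 3 and low on icKO 2, while the Plagl1 probes split into a pair with differences of 0.45 and 0.48 and a pair with -0.42 and -0.71.

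Dlk1, the paternally read partner of Meg3, encodes a transmembrane ligand-like protein that resembles Notch ligands and holds back differentiation of progenitor cells. Both Dlk1 probes were not well above background on any of the 6 arrays, and no difference is given for it. Of 12 measured genes of the Notch pathway, 5 were higher and 2 lower, where 16.0% and 28.7% of all features were. Rbpj, the DNA-binding partner of activated Notch receptors, was higher by 0.61 ± 0.09 (adjusted p = 0.00313), although a second probe gave -0.17 and averaging both probes ended the call (0.22). Notch4, an endothelial receptor, rose by 0.76 ± 0.11 (adjusted p = 0.00324). The ligands Dll4 (-0.55 ± 0.14) and Jag2 (-0.36 ± 0.09) were lower, with adjusted p of 0.0205 and 0.0176. Both ligand calls were lost with median scaling, spike-in scaling (where Jag2 gave 0.09), no filter on dim probes and a replicate block (adjusted p = 0.0636 and 0.0644). The Dll4 call was also lost without icKO replicate 3 (-0.49) and the Jag2 call without control replicate 3 (-0.35).

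Among the zinc-finger factors, Peg3, a large paternally read protein tied to maternal behaviour and growth, was brighter in icKO, where alone it was measured on every array. Its probe stood at log2 levels of -4.13, -3.29 and -6.02 in controls and -1.36, -2.33 and -2.68 in icKO. Only 1 of 3 controls was well above background, against 3 of 3 icKO arrays. With each dim control raised to the lowest signal well above background on its array, Peg3 was 2.70-fold brighter in icKO, which is no strict lower bound. The fitted difference of 2.36 ± 0.71 (adjusted p = 0.0366) rests on control values below that level and is no measure of size. Before scaling, the processed signals were 10.8, 23.7 and 3.3 in controls and 121.4, 69.1 and 45.6 in icKO. A second Peg3 probe was above background on 1 icKO array (-2.96) and on no control, and was not tested. The call was lost with normexp background correction (0.46, adjusted p = 0.0823), when dim probes were all kept (adjusted p = 0.108) and with slide row as a block (2.01, adjusted p = 0.0661). Leaving out control replicate 1 (2.54) or any icKO replicate (1.98, 2.46 and 2.64) ended it too. Without control replicate 3 the difference was 1.59 (adjusted p = 0.046).

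Plagl1, a paternally read transcription factor that slows cell division and sits high in a network of imprinted genes, gave probes that disagreed. The brightest stood at log2 levels of 0.60, 0.79 and 0.97 in controls and 1.52, 0.78 and 1.43 in icKO. As with H19, icKO replicates 1 and 3 lay above all controls and icKO replicate 2 did not. The difference was 0.45 ± 0.22 (adjusted p = 0.134), and a second probe gave 0.48 (adjusted p = 0.175). The other 2 probes were lower in all 3 icKO arrays than in any control, by -0.42 and -0.71, and missed the threshold (adjusted p = 0.0512 and 0.0673). On both, the groups overlapped before scaling. The probe at -0.42 had processed signals of 84.7, 110 and 114.6 in controls and 118.6, 141.6 and 89.4 in icKO. The mean of the first pair minus the mean of the second pair, taken within each array and so free of scaling, came to 2.31, 2.26 and 2.22 for controls 1 to 3 and 3.51, 2.54 and 3.84 for icKO 1 to 3, a description of pairs chosen after their values were seen. All 4 probes carry the same accession, and where they lie in the transcript is unknown here. Plagl1 was called higher with median scaling (0.61, adjusted p = 0.0423), spike-in scaling (0.90, adjusted p = 0.0272) and without icKO replicate 2 (0.69, adjusted p = 0.0191), and the mean of its 4 probes gave -0.05. Within slide row 1 its difference was -0.01 and within row 2 it was 0.68, and the part of the row was not tested.

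Promoter windows from RefSeq (GRCm38.p6), from 250 bases before to 50 after an annotated start, were at hand for 7 of the 9 members, 11 windows in all. They were searched on both strands for 3 short motifs: the TEAD element CATTCC, the ZFP57 element TGCCGC, and GGGGCCCC, a core bound by PLAGL1. Over all 32851 windows, 14.7%, 11.6% and 1.08% hold them. Among the members only a Peg3 window held the TEAD letters, at position -84 before the start, and the same window held the PLAGL1 core. The ZFP57 letters lay in windows of Meg3, Mest, Plagl1 and Grb10. The CpG count was 13 in the Peg3 and the first Meg3 window and 17 in the Mest windows that hold the motif, against a median of 7 and an upper quartile of 20 over all windows. The bases before the start are shown for Peg3, Meg3 and Mest, 3 members that differed between the groups, with matches in capitals; a match is a run of letters and no evidence of binding.
Peg3 (chr7:6730420-6730669, minus strand): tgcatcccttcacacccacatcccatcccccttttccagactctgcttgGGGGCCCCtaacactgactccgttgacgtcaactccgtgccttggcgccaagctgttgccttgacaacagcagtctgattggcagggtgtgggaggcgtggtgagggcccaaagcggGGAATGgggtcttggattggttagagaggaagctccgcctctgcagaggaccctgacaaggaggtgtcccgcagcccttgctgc
Meg3 (chr12:109540746-109540995, plus strand): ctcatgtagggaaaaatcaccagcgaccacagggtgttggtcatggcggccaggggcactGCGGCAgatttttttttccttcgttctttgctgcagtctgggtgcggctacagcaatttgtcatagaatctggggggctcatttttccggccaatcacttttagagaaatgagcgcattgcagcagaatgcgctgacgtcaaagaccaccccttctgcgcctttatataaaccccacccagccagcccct
Mest (chr6:30737800-30738049, plus strand): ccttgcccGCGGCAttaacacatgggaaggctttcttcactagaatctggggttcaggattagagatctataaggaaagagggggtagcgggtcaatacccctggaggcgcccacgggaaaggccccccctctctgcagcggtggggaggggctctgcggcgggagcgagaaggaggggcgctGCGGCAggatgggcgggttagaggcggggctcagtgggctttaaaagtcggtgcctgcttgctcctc

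Grb10, an adaptor that binds the insulin and IGF1 receptors and dampens their signal, stood at log2 levels of 1.49, 0.66 and 1.06 in controls and 0.75, 1.33 and 1.33 in icKO. The arrays of both groups were interleaved. The difference was 0.07 ± 0.26 (adjusted p = 0.845), and its sign turned without control replicate 2, icKO replicate 2 or icKO replicate 3. Of 16 measured genes of insulin and IGF signalling, 5 were higher and 2 lower in icKO, where 16.0% and 28.7% of all features were. Igfbp3, which binds IGFs in the extracellular space, rose by 1.42 ± 0.23 (adjusted p = 0.00411), and the docking protein Irs2 by 1.16 ± 0.19 (adjusted p = 0.00489). Grb14, the closest relative of Grb10, fell by 0.97 ± 0.10 (adjusted p = 0.00102). Pik3r1, a regulatory subunit of PI3-kinase, was lower by -0.93 ± 0.21 (adjusted p = 0.0138), a call lost with spike-in scaling (-0.49) and when dim probes were all kept (adjusted p = 0.0548).

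Mest, a paternally read protein of the hydrolase fold family that is abundant in fetal mesoderm, was lower in icKO. One of its probes is printed on 10 spots, of which 7 to 10 per array were used. Its mean log2 level came to -0.17, -0.84 and -0.11 for controls and -2.17, -1.83 and -2.05 in icKO. Every icKO array lay below every control, and the SD between spots of an array was 0.05 to 0.21. The difference was -1.64 ± 0.22 (adjusted p = 0.00209), 3.12-fold lower. A second probe, at -1.60, -2.17 and -1.34 in controls and -2.53, -2.48 and -2.86 in icKO, gave -0.92 ± 0.23 (adjusted p = 0.0196). On that second probe the groups overlapped before scaling, with processed signals of 62.5, 51.7 and 85.1 in controls and 54.2, 62.5 and 40.1 in icKO. The last Mest probe was above background on 1 control only. Mest passed under every alternative setting run, between -1.88 and -1.14.

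Cdkn1c encodes an inhibitor of cyclin-dependent kinases that is read from the maternal copy and restrains growth. It stood at log2 levels of 2.51, 2.53 and 2.55 in controls and 1.75, 1.64 and 1.57 in icKO. The controls spanned a far narrower range than the gap between the groups. The difference was -0.87 ± 0.09 (adjusted p = 0.000983), 1.83-fold lower, and -0.89 and -0.86 within slide rows 1 and 2. Before scaling the groups overlapped, with processed signals of 1076, 1340.1 and 1257.6 in controls and 1049.8, 1080.8 and 868.5 in icKO. Spike-in scaling gave -0.43 (adjusted p = 0.0675), which ended the call.

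Other cell-cycle genes moved both ways, with 3 of 13 higher and 5 lower, where 16.0% and 28.7% of all features were. Cdkn1a, another inhibitor of the Cdkn1c family and a p53 target, rose by 2.46 ± 0.23 (adjusted p = 0.000662), from 1.71, 1.95 and 2.10 in controls to 4.87, 4.21 and 4.08 in icKO, while a dim second probe gave -0.17. Cdkn2b, an inhibitor of cyclin D kinases, was higher by 1.60 ± 0.18 (adjusted p = 0.0012), with 2 of 3 controls above background. It passed the filter through the icKO arrays alone, so its call was favoured by the filter. The third family member, Cdkn1b, differed by 0.03 ± 0.10 (adjusted p = 0.833). Ccne1 fell by 1.26 ± 0.21 (adjusted p = 0.00476) and Ccnd2 by 0.72 ± 0.11 (adjusted p = 0.00373), the latter lost with spike-in scaling (-0.27).

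Ndn, a paternally read protein of the MAGE family that restrains cell division in neurons, stood at log2 levels of -1.11, -1.26 and -1.25 in controls and -1.82, -1.42 and -1.54 in icKO. The groups did not overlap, but the difference of -0.39 ± 0.13 missed the threshold (adjusted p = 0.0531). It passed with normexp background correction (-0.34, adjusted p = 0.0384), where probes had to be above background on all arrays (adjusted p = 0.0458) and without icKO replicate 2 (-0.47, adjusted p = 0.0442). Its sign turned with spike-in scaling (0.06). The groups overlapped before scaling, with processed signals of 87.6, 97 and 90.4 in controls and 88.2, 130.2 and 100.5 in icKO.

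**Figure D3:**
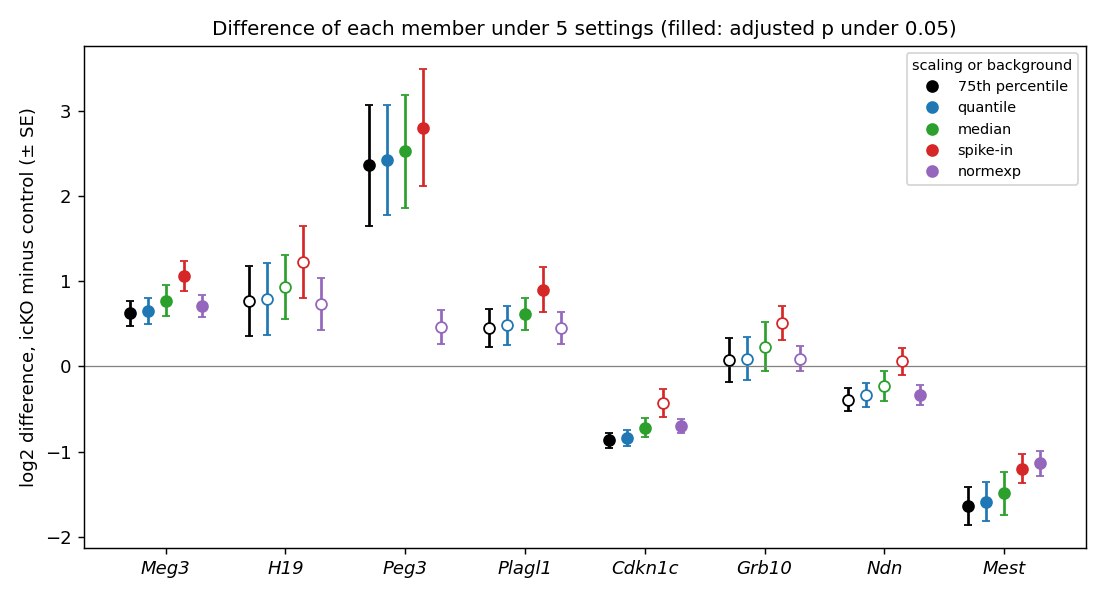
Log2 difference (icKO minus control, ± SE, vertical axis) of the 8 tested members under 75th percentile, quantile, median and spike-in scaling and under normexp background correction, with filled points where the adjusted p was under 0.05. Mest stayed between -1.64 and -1.14, Peg3 dropped from 2.36 to 0.46 with normexp, and spike-in scaling moved Cdkn1c from -0.87 to -0.43 and Ndn from -0.39 to 0.06.

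The counts of members called moved with scaling as well. Median scaling gave 3 higher and 2 lower, spike-in scaling 3 higher and 1 lower, and normexp 1 higher and 3 lower. Over all 22280 features these settings gave 4400 higher and 3659 lower, 7176 and 1681, and 3652 and 7679. The shifts in the member counts are thus no result about the members. Mest was called lower and H19 was not called under each of these scalings and backgrounds.

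Neighbours of the members within their clusters were examined next. Of 37 other genes listed for these clusters, 23 were measured, of which 3 were higher and 6 lower. Over all features 16.0% were higher and 28.7% lower, so these counts lie near the background. Beside H19, Igf2, the fetal growth factor, stood at -2.72, -2.72 and -2.57 in controls and -3.21, -4.92 and -2.95 in icKO, with 1 of 3 icKO arrays above background. All 3 icKO arrays lay below the controls, and the difference of -1.02 ± 0.50 did not pass (adjusted p = 0.138), though it did with normexp (-0.54, adjusted p = 0.0215). Igf2 passed the filter through the control arrays alone, so its separation and its normexp call were favoured by the filter. Ins2 was lower by -0.41 ± 0.08 (adjusted p = 0.00959), lost with median scaling, no filter on dim probes and trend and robust eBayes, and 0.03 with spike-in scaling.

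In the cluster of Cdkn1c, Kcnq1, a cardiac potassium channel, fell by 0.95 ± 0.12 (adjusted p = 0.002), Th, tyrosine hydroxylase, by 0.99 ± 0.09 (adjusted p = 0.000528), and Nap1l4, a histone chaperone, by 0.49 ± 0.10 (adjusted p = 0.0111). With spike-in scaling the Kcnq1 and Nap1l4 calls were lost (-0.51 and -0.05), and Nap1l4 was lost with median scaling and no filter too. The transporter Slc22a18 was higher by 0.54 ± 0.12 (adjusted p = 0.0144), lost with normexp (0.19) and no filter on dim probes. Ascl2, a transcription factor not well above background in any control, was 1.56-fold brighter in icKO than a raised control level. Its difference was 0.00 with normexp. Ascl2 passed the filter through the icKO arrays alone. Its call (adjusted p = 0.00151) and its place among the higher neighbours were thus favoured by the filter. Kcnq1ot1, the noncoding RNA that silences this cluster in cis, differed by 0.29 ± 0.10 (adjusted p = 0.0586) and passed with normexp, median and spike-in scaling (0.32, 0.45 and 0.73). Tspan32 (0.58), Tssc4 (0.11), Osbpl5 (0.10) and Cd81 (-0.16) did not pass. With spike-in scaling Tspan32, Tssc4 and Osbpl5 did, and without icKO replicate 3 Tspan32 did (0.92).

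In the remaining clusters, Mirg, a noncoding RNA downstream of Meg3, differed by 0.44 ± 0.27 (adjusted p = 0.233), passing with spike-in scaling (0.88). Begain differed by 0.35 ± 0.36 (adjusted p = 0.466), with the outlier spot of icKO replicate 3 left out of the fit. Begain was called without icKO replicate 1 (0.94) and gave -0.23 without icKO replicate 2. Of the genes flanking Grb10, Cobl, which nucleates actin, fell by 0.95 ± 0.18 (adjusted p = 0.00756, lost with spike-in scaling at -0.51), and Ddc, a decarboxylase of amine synthesis, rose by 1.30 ± 0.26 (adjusted p = 0.00855). Phactr2, beside Plagl1, was lower by -0.43 ± 0.11 (adjusted p = 0.0238), while its dimmer probe gave 0.07. That call was lost with median scaling, no filter, the mean of its probes (-0.18), a replicate block (adjusted p = 0.0709) and by leaving out control replicate 1 or 3 (-0.40 each) or icKO replicate 3 (-0.45), and spike-in scaling gave 0.02. Copg2 beside Mest and Zim3 beside Peg3 both differed by -0.03. Near Ndn, Atp10a (1.31 ± 0.50, adjusted p = 0.0744), Peg12 (-0.17), Snrpn (-0.14) and Ube3a (-0.06) did not pass. Atp10a did with spike-in scaling, array weights and without control replicate 1 (1.68), Peg12 and Zim3 were called lower with normexp (-0.31 and -0.28), and a dim Snrpn probe gave 1.56 (adjusted p = 0.0279). Atp10a passed the filter through the icKO arrays alone and Zim3 through the controls alone, so the calls of these genes were favoured by the filter.

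**Figure D4:**
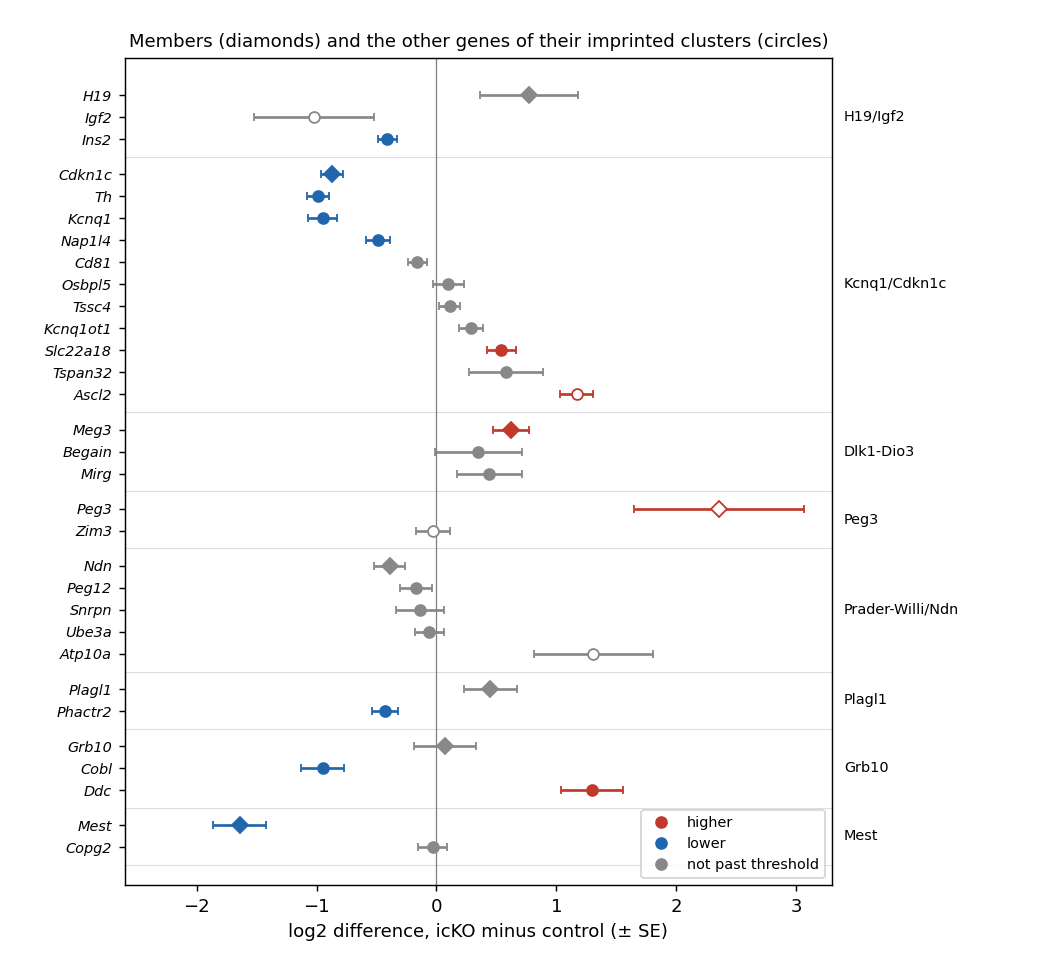
Log2 difference (icKO minus control, ± SE, horizontal axis) of the members (diamonds) and the 23 other measured genes of their clusters (circles), red where higher, blue where lower and grey where the adjusted p was 0.05 or more. Open symbols (Ascl2, Peg3, Igf2, Zim3 and Atp10a) had fewer than 3 arrays of a group above background, so their position is a fitted value and no measure of size. In the Kcnq1/Cdkn1c cluster the filled points run from -0.99 for Th to 0.58 for Tspan32, which did not pass.

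Over all imprinted loci listed besides the members, 47 of 74 genes were measured, with 11 higher, 13 lower and a median difference of -0.03. Of all features 16.0% were higher and 28.7% lower. Spike-in scaling gave 22 higher and 2 lower, and median scaling 12 and 7. Among all 22280 features these scalings gave 7176 and 1681, and 4400 and 3659. Smoc1, a matricellular protein, had the smallest p among those that rose outside the members' clusters (1.99 ± 0.22, adjusted p = 0.00113). Igf2r, the receptor that clears IGF2, rose by 0.83 ± 0.10 (adjusted p = 0.00144), from 3.85, 3.72 and 3.94 in controls to 4.62, 4.68 and 4.71 in icKO. Blcap fell by 0.78 ± 0.11 and Commd1 by 0.62 ± 0.10 (adjusted p = 0.00247 and 0.00433), both lost with spike-in scaling (-0.33 and -0.18).

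Among 15 measured genes that write, read or erase the imprint, 2 were higher and 5 lower, where 16.0% and 28.7% of all features were. Zfp57, the zinc-finger protein that protects methylated imprints in the early embryo, stood at -0.97, -1.05 and -0.99 in controls and -2.09, -2.14 and -2.44 in icKO. It fell by 1.22 ± 0.12 (adjusted p = 0.000817), with every icKO array below every control. Tet3, an oxidase of methylated cytosine, was lower by -0.84 ± 0.22 (adjusted p = 0.0216), while a second probe gave -0.35 ± 0.20 with overlapping groups (adjusted p = 0.194). Its relative Tet2 rose by 0.76 ± 0.13 (adjusted p = 0.0049). The Tet3 call was lost with spike-in scaling (-0.40), no filter on dim probes, and the omission of control replicate 1 (-0.85) or 3 (-0.74) or icKO replicate 2 (-0.80) or 3 (-0.67). Ehmt2, a histone methyltransferase, rose by 0.55 ± 0.09 (adjusted p = 0.00488). DNA methylation itself was not measured. Nor was the parental copy read, so whether each listed gene is read from 1 copy in these ventricles is unknown here.

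Markers of several cell types differed between the groups, and others overlapped, where 16.0% of all features were higher and 28.7% lower. Of 9 fibroblast markers 6 were higher and none lower, with a mean log2 level of 3.33 to 4.05 over control arrays and 4.63 to 4.95 over icKO arrays. All 6 measured macrophage markers were higher (1.69 to 2.27 against 2.91 to 3.44), and 7 of 8 cardiomyocyte markers were lower (9.22 to 9.38 against 8.58 to 8.72). Of 7 endothelial markers 3 were lower (2.59 to 2.84 against 2.21 to 2.52), and of 7 for smooth muscle and pericytes 2 were higher and 2 lower (2.02 to 2.41 against 2.13 to 2.39). For epicardium 1 of 5 was higher (-2.22 to -0.65 against -1.63 to -0.42), for erythroid cells 2 of 3 (3.49 to 4.0 against 4.55 to 6.25). For neurons and Schwann cells 3 of 5, Th among them, were lower (-0.04 to 0.03 against -0.66 to -0.28), and of the defining skeletal muscle myosins Myh1, Myh2 and Myh4 none passed the filter, nor did Actn3, while of the 4 markers of that list that did, 1 was higher and 3 lower (1.66 to 1.88 against 0.23 to 0.74). None of 6 adipocyte markers passed the filter, and of 6 cell cycle markers 2 did, neither called (-1.46 to -1.20 against -1.86 to -0.76). The lower calls ran from -0.38 (Tnnt2) to -1.03 (Tnni3) for cardiomyocytes and from -0.47 (Tek) to -0.65 (Kdr) for endothelial cells. Spike-in scaling added 0.44 to the median log2 difference of all features, near the size of the smaller of these. Whether the marker calls hold under that scaling was not examined, apart from Th (-0.55, adjusted p = 0.0305). The part of these cell types in the differences of Meg3, Peg3, Mest and Cdkn1c was not tested.

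The genes whose centred values lay nearest to a member's over the 6 arrays, among 12484 named genes, were sought for the member that rose and the one that fell with the smallest p. For Meg3 these were Harbi1 (Euclidean distance 0.13 in log2 units), Myh9 (0.13) and Gli3 (0.18), with differences of 0.55, 0.52 and 0.71. For Cdkn1c they were Calcoco1 (0.10), Idh3g (0.12) and Gdpd5 (0.12), with differences of -0.86, -0.91 and -0.82. With so many features differing between the groups, a near profile over 6 arrays is a description of these arrays alone. The Harbi1 and Myh9 calls were lost without either of control replicates 1 and 2 or icKO replicates 2 and 3 (between 0.43 and 0.50) and with no filter on dim probes. The 3 profiles near Cdkn1c lost theirs with spike-in scaling (-0.42, -0.46 and -0.38).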

How the data were processed

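Ventricular total RNA, labelled with Cy3, went onto 6 one-colour arrays, per the labels' protocols. Scanner output was deposited as linear spot intensity, already background-subtracted, from Agilent Feature Extraction 11.0.1.1 (design 028005), per the file headers (version 9.1 per the submitters' processing notes). The authors' deposited value table, of linear intensity, served as an alternative only; how it was made is not given in these sources.

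Processed signals, without outlier spots and averaged per probe, were put on a log2 scale relative to the 75th percentile of non-control probes on the array. Kept were 26153 of 55681 probes, those well above background throughout at least 1 group. RefSeq accessions were matched to symbols in a GRCm38.p6 gene table that served for names and for promoter and microRNA sequences only, since the array's design names mm9. Each gene is represented by the brightest probe kept. Where no array of a group was above background, and for Peg3 with 1 of 3 controls above it, the fold compares the brighter group with a raised level. That level is, on each array of the dim group, the probe's signal or the lowest one well above background, whichever is higher, averaged. Some probes not well above background lay above that lowest signal, so such a fold is no strict lower bound.

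The test was limma 3.58.1 (lmFit and eBayes with a single group term, R 4.3.3), Benjamini-Hochberg adjusted over 22280 features, threshold 0.05. Only this fit was tried on simulated data, and the scaling, the filter and the choice of probes were not. An adjusted p comes from this fit over genes, from the same fit over 26153 probes for single probes, or, where a setting, a left-out array or a block is named beside it, from the refit under that setting, adjusted over its own features. Replicate numbers did not pair the samples: deviations of same-numbered arrays correlated at -0.05, -0.13 and 0.00. All arrays shared 1 slide and 1 scan, so no slide block could be fitted. The scanner output holds no mean signal column, so normexp (offset 50) used the median foreground and background signals.

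The members, gene lists and tests were chosen with earlier results of these data known. Named were all members; measured genes of their clusters; by smallest p, 2 called higher and 2 called lower among other imprinted genes and in each partner list; Tead1; and the 3 nearest profiles of 2 members. Cdkn1b, the cell type markers and the probe of accession NR_001592 were added.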

Additional observations from a re-analysis of the deposited data

How the results depend on the processing

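Of 151 alternative values for the 8 tested members, 126 kept their direction and their side of the threshold, 13 lost a call, 7 gained one and 5 changed sign. For the 50 other named genes 839 of 945 did so, 60 lost a call, 15 gained one and 31 changed sign. The 9976 features called became 6123 with no filter on dim probes and 5329 at a threshold of 0.01, the 4 members 2 and 2, and the 24 other imprinted genes 15 and 14; more features enter the adjustment without the filter. Leaving out 1 array gave 7545 to 9085 features, 2 to 5 members (2 without control replicate 1 or icKO replicate 3) and 19 to 24 other imprinted genes. With the replicate block, for which no pairing by number was seen, 7882 features, 4 members and 19 other imprinted genes were called.

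Signs turned as follows, and the cause was not tested. Spike-in scaling, which shifts all differences up, gave Tead1 0.04, Ndn 0.06, Ins2 0.03, Cd81 0.28, Copg2 0.41, Zim3 0.41, Phactr2 0.02, Peg12 0.27, Snrpn 0.30, Ube3a 0.38 (called, adjusted p = 0.0496) and Jag2 0.09. Median scaling gave Copg2 0.13, Zim3 0.13, Snrpn 0.02 and Ube3a 0.10. Quantile normalization gave Cd81 0.02 and Zim3 0.11, as did the authors' table (0.02 and 0.11). Normexp gave Begain -0.07, Cd81 0.00 and Copg2 0.08. The mean of probes gave Plagl1 -0.05, Copg2 0.01 and Snrpn 0.53, array weights Copg2 0.01, and slide row as a block Zim3 0.00. Without 1 array, Grb10 gave -0.14 to -0.03 in the 3 cases that turned, and the whole ranges were -0.23 to 0.94 for Begain, -0.13 to 0.06 for Copg2, -0.11 to 0.08 for Zim3 (0.07 in another case), -0.25 to 0.07 for Snrpn and -0.16 to 0.02 for Ube3a. Signal over background limits Peg3, Igf2, Ascl2 and Dlk1.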
